A study of Homo sapiens with 6 samples.

Results

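The genes described here are 10 integrin subunits of epithelial cells: the alpha subunits ITGA2, ITGA3, ITGA5, ITGA6 and ITGAV and the beta subunits ITGB1, ITGB4, ITGB5, ITGB6 and ITGB8. They were picked out of the table by gene name, and the set was drawn up with earlier results of these data known. All 10 were found among the 58735 genes of the count table, and all were among the 15430 genes with enough counts to be tested. RNA-Seq was performed on MCF10A, a nonmalignant human breast epithelial cell line, to ask how the transcriptome changes when the tumor suppressor DAB2IP is lost. Of 6 libraries, 3 came from cells that received a nontargeting control pool (siControl, genotype label WT) and 3 from cells in which an siRNA targeted DAB2IP (siDAB2IP, genotype label KD). All cells grew in medium with horse serum, insulin, epidermal growth factor, cholera toxin and hydrocortisone, and total RNA was collected 48 hours after transfection. The comparison rests on a single cell line and a single siRNA reagent, so effects of this siRNA on transcripts other than DAB2IP cannot be told apart from effects of DAB2IP loss. The labels do not say that the 3 libraries of a group came from separate cultures, so p values measure the spread between these libraries, which may be technical.

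Integrins are receptors made of an alpha and a beta chain that bind the extracellular matrix outside the cell and link, through adaptor proteins, to the cytoskeleton inside it. The chains that pair decide the ligand: in epithelium, pairs of ITGB1 with ITGA2, ITGA3 or ITGA5 bind collagen, laminin and fibronectin, respectively. ITGA6 pairs with ITGB4 in hemidesmosomes, which anchor basal cells to laminin, and ITGAV pairs with ITGB5, ITGB6 or ITGB8 to bind ligands with an RGD sequence, among them vitronectin and latent TGF-β.

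Of the 10 subunits, 1 rose and 1 fell upon DAB2IP knockdown. ITGA5, the alpha chain of the fibronectin receptor, was 2.12-fold higher in siDAB2IP cells, and ITGB8, a partner of ITGAV that binds latent TGF-β, was 2.04-fold lower. The other 8 subunits did not pass the threshold, an adjusted p under 0.05 in edgeR's quasi-likelihood test over all genes tested. In the whole table, 6.55% of the genes tested rose and 7.65% fell, 14.2% in either direction, so 2 called subunits of 10 are close to the background. The median log2 fold change was 0.15 over the 10 subunits and 0.01 over all genes tested. The CPM values (counts scaled to a common library total, TMM-normalized) of the groups did not overlap for 4 subunits, ITGA5, ITGA6, ITGB5 and ITGB8, compared with 35.9% of all genes tested.

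The promoters of the 2 called subunits are shown because they are the members whose transcript level changed. RefSeq promoter windows (GRCh38.p14), each from 250 bases before to 50 bases after a transcription start site, were found for 8 of the 10 subunits, but not for ITGA3 and ITGB4. Printed are the first 260 bases of each window on the gene's strand, 5′ to 3′, from 250 bases before the start site through the first 10 transcribed bases. The ITGA5 sequence is chr12:54419257-54419516 on the minus strand, and the ITGB8 sequence is chr7:20330650-20330909 on the plus strand. Capitals mark matches to the NF-κB consensus, a degenerate motif of 10 letters, and to the AP-1 site TGANTCA.
ITGA5: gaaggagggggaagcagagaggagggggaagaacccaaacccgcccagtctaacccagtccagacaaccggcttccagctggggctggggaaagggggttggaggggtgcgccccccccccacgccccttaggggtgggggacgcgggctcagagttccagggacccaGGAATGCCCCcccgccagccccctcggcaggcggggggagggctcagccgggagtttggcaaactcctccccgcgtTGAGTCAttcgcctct
ITGB8: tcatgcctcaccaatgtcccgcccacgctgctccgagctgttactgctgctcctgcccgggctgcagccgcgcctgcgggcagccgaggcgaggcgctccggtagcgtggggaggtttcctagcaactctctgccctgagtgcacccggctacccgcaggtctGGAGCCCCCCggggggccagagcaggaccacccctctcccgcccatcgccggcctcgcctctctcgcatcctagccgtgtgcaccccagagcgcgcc
The ITGA5 window held an NF-κB consensus match that begins 82 bases before the start site and an AP-1 match that begins 6 bases before it. The first letters of the NF-κB match also spell the TEAD core GGAATG. The ITGB8 window held an NF-κB match that begins 87 bases before its start site and no AP-1 match. Both strands were searched, and both NF-κB matches are on the strand opposite to the one printed. Among all 35116 RefSeq windows, 11.27% held the NF-κB consensus, 7.709% the AP-1 site, 14.03% the TEAD core, 44.95% the Sp1 core GGGCGG and 7.256% the E-box CACGTG. ITGA6, ITGAV and ITGB1 had 2 windows each and ITGB5 had 3. For these the window nearest the start of the deposited gene was used, whereas the shares above count every window. Of the 8 subunit windows, 3 held the NF-κB consensus (ITGA5, ITGB1 and ITGB8), 1 the AP-1 site, 2 the TEAD core, 6 the Sp1 core and 1 the E-box. The NF-κB match was thus present in the window of a subunit that rose, in that of a subunit that fell and in that of a subunit that was not called. The GC content of these 3 windows was 69.3% (ITGA5), 78.3% (ITGB1) and 71.7% (ITGB8), and that of the subunit windows without the match was 31.7 to 72.7%. The shares were not matched for GC content. RefSeq's start site lies 194 bases from the start of the deposited gene for ITGA5 and 198 bases from it for ITGB8. For ITGB1 it lies 47562 bases from that start. A match of letters is a description and not a binding site.

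The knockdown was checked first. DAB2IP stood at 103, 94.3 and 77.4 CPM in the siControl libraries and at 27.5, 25.6 and 22.4 CPM after knockdown, and its log2 fold change was -1.86 (SE 0.13, edgeR adjusted p = 9.71e-05). Libraries held 16353783 to 21916062 counts, so that 3 counts, the limit that a count of 0 allows, equal 0.137 to 0.183 CPM, and every subunit stood far above this limit. siDAB2IP replicate 3 stood apart: its log2 CPM values correlated with those of the other siDAB2IP libraries at 0.978 to 0.979, compared with 0.989 between those 2 libraries and 0.986 to 0.990 among the siControl libraries. Of 9 basal and epithelial markers, all 9 were tested. KRT5, KRT14, KRT6A and KRT17, 4 of the 9, fell (44.4%, compared with 7.65% of all genes tested), and 0 rose (compared with 6.55%). The summed level of the 9 markers was 8717 to 10710 CPM in siControl and 5135 to 6018 CPM in siDAB2IP libraries. Luminal markers (4 of 7 tested, of which FOXA1 rose) summed to 303 to 318 CPM in siControl and 277 to 364 CPM in siDAB2IP libraries, with PGR at 0 counts in every library and ESR1 and KRT19 too low to test. Fibroblast markers (3 of 7 tested, of which COL1A1 rose) summed to 163 to 293 and 146 to 206 CPM, most of it from DCN, with COL1A2, COL3A1, PDGFRA and LUM at 0 to 7 counts, and endothelial and immune markers (3 of 7 tested, 0 called) to 11.4 to 16.0 and 7.65 to 11.4 CPM, with CD3E at 0 counts. The calls in the luminal and fibroblast lists are 1 gene of 4 and 1 gene of 3 tested, too few to set against the shares of all genes. The part of these marker differences in the integrin results was not tested, and in bulk RNA fewer cells of a type cannot be told apart from less RNA per cell.

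Levels of different subunits were compared per length, as FPKM, which normalizes for both gene length and library size. In siControl cells the order was ITGB4 (269 ± 19.0 FPKM, SD, n = 3), ITGB1 (248 ± 18.9), ITGA6 (165 ± 12.2), ITGA3 (105 ± 7.97), ITGA5 (81.6 ± 1.20), ITGAV (31.9 ± 3.76), ITGB5 (31.8 ± 2.92), ITGB8 (25.2 ± 1.06), ITGA2 (24.5 ± 1.38) and ITGB6 (11.9 ± 1.69). Neighbors in this order overlapped between ITGB4 and ITGB1, between ITGAV and ITGB5 and between ITGB8 and ITGA2, while the other steps were larger than the spread of the libraries. The chains of the laminin-binding hemidesmosome pair and the common ITGB1 chain were thus the most abundant, and by mean FPKM over all 6 libraries ITGB4 ranked 75 and ITGB1 ranked 89 of the 15430 genes tested. The lowest of the 10, ITGB6, ranked 3213.

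The order differed at several places in siDAB2IP cells. ITGA5 moved from the fifth to the third position, at 172 ± 1.79 FPKM, above ITGA3 (127 ± 13.8) and ITGA6 (120 ± 35.7) in every siDAB2IP library. ITGA3 and ITGA6 changed places by their means, but their siDAB2IP ranges overlapped. ITGB8 moved from the eighth to the last position, at 12.3 ± 3.24 FPKM, where its range overlapped that of ITGB6 (13.8 ± 0.875). ITGB4 (292 ± 44.6 FPKM) and ITGB1 (241 ± 41.7) remained at the top, with overlapping ranges. ITGB5 (39.9 ± 3.24) lay above ITGAV (34.4 ± 0.989) in every siDAB2IP library, whereas their siControl ranges overlapped, and ITGA2 (27.7 ± 6.89) followed.

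**Figure D1:**
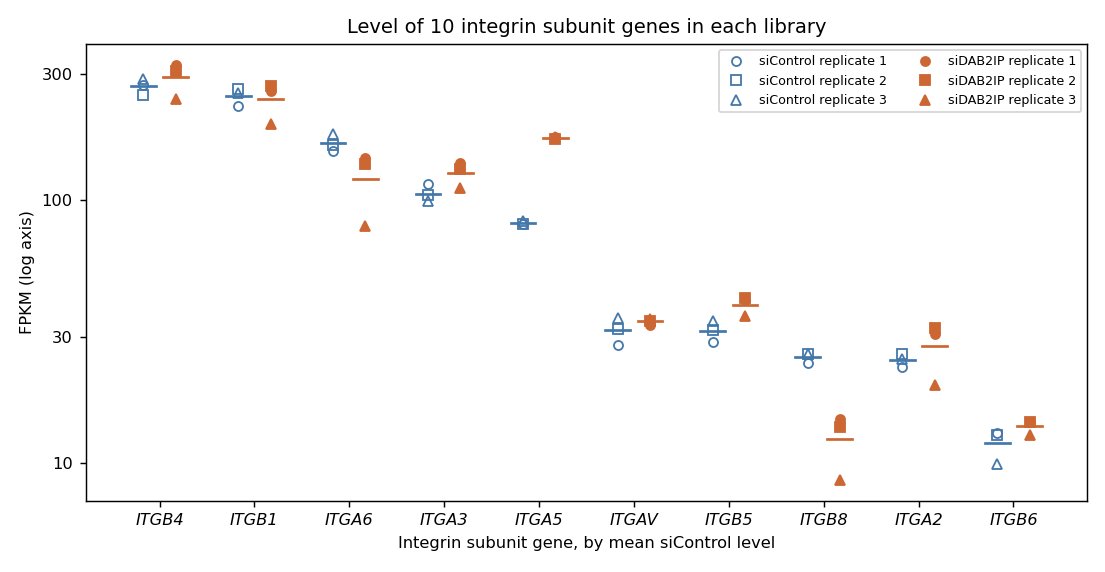
FPKM of each integrin subunit gene (log axis) in the 3 siControl (blue, open) and 3 siDAB2IP libraries (orange, filled). Marker shapes give the replicate number and horizontal lines the group means. ITGA5 lay at 80.8 to 83.0 FPKM in siControl and at 170.2 to 173.7 FPKM in siDAB2IP libraries, and siDAB2IP replicate 3 (filled triangles) was the lowest siDAB2IP library for 8 subunits.

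Among the RGD-binding receptors, ITGA5 (chr12:54395261-54419460, minus strand, 24 merged exons) showed the clearest rise. Its CPM values were 620.5, 615.8 and 635.1 in the siControl libraries and 1321, 1305 and 1332 in the siDAB2IP libraries. The groups lay far apart, and within each group the libraries were nearly alike, siDAB2IP replicate 3 included. The log2 fold change was 1.08 (SE 0.11, 95% interval 0.85 to 1.31, edgeR adjusted p = 0.000449), and the differences between same-numbered libraries were 1.09, 1.08 and 1.07 on the log2 scale.

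ITGB8 (chr7:20330702-20415754, plus strand, 14 merged exons) was the only subunit that fell. Its CPM values were 367.2, 393.7 and 394.8 in the siControl libraries and 223.5, 210.0 and 131.8 in the siDAB2IP libraries. Every siDAB2IP library lay below every siControl library, and replicate 3 was the lowest. The log2 fold change was -1.03 (SE 0.18, 95% interval -1.42 to -0.64, edgeR adjusted p = 0.00569). It was -0.83 without siDAB2IP replicate 3 (edgeR adjusted p = 0.000256), so the fall did not rest on that library.

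The other partners of ITGAV, and ITGAV itself, did not pass the test. ITGB5 (chr3:124761948-124901418, minus strand), a chain of a vitronectin receptor, stood at 187.7, 207.3 and 225.6 CPM in siControl and at 269.8, 274.9 and 236.3 CPM in siDAB2IP libraries. These groups did not overlap, although the lowest siDAB2IP library lay close to the highest siControl library. The log2 fold change was 0.33 (SE 0.11, 95% interval 0.09 to 0.58, edgeR adjusted p = 0.0728), and ITGB5 passed the threshold without siDAB2IP replicate 3 (0.40, edgeR adjusted p = 0.0200) and with scaling by library size only (0.37, edgeR adjusted p = 0.0452). ITGAV (chr2:186590065-186680901, plus strand), the alpha chain shared by these receptors, stood at 232.2, 266.3 and 294.2 CPM in siControl and at 276.6, 287.4 and 293.7 CPM in siDAB2IP libraries, so the groups overlapped (log2 fold change 0.11, 95% interval -0.13 to 0.36). ITGB6 (chr2:160099666-160200313, minus strand), which like ITGB8 binds latent TGF-β with ITGAV, stood at 61.3, 60.0 and 47.0 CPM in siControl and at 67.8, 67.8 and 60.7 CPM in siDAB2IP libraries. ITGB6 therefore overlapped between the groups, with a log2 fold change of 0.22 (95% interval -0.04 to 0.49).

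No laminin-binding subunit passed the test with all 6 libraries. ITGA6 (chr2:172427354-172506282, plus strand), which pairs with ITGB4 or ITGB1, stood at 1015, 1065 and 1173 CPM in siControl and at 952.2, 903.7 and 523.7 CPM in siDAB2IP libraries. All siDAB2IP libraries were lower, but replicate 3 was far below the other 2. The log2 fold change was -0.45 (SE 0.20, 95% interval -0.90 to -0.00, edgeR adjusted p = 0.163, unadjusted p = 0.0483), and it was -0.22 without siDAB2IP replicate 3, so 1 library decides the size of this difference. ITGB4 (chr17:75721328-75757818, plus strand), its partner in hemidesmosomes, stood at 1860, 1695 and 1958 CPM in siControl and at 2223, 2111 and 1652 CPM in siDAB2IP libraries. Replicates 1 and 2 were above all siControl libraries and replicate 3 was below them, and the log2 fold change was 0.12 (95% interval -0.20 to 0.44). ITGA3 (chr17:50055968-50090481, plus strand), a laminin receptor chain that pairs with ITGB1, stood at 1132, 1023 and 976.5 CPM in siControl and at 1365, 1297 and 1104 CPM in siDAB2IP libraries. Here only siDAB2IP replicate 3 overlapped the siControl range, and the log2 fold change was 0.27 (SE 0.13, 95% interval -0.02 to 0.55, edgeR adjusted p = 0.192).

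ITGA2 (chr5:52989326-53094779, plus strand), the alpha chain of a collagen receptor, stood at 184.3, 205.3 and 197.3 CPM in siControl and at 245.6, 260.1 and 158.5 CPM in siDAB2IP libraries. As for ITGB4, the siDAB2IP libraries lay on both sides of the siControl range, and the log2 fold change was 0.18 (SE 0.17, 95% interval -0.19 to 0.55). ITGB1 (chr10:32900319-33005792, minus strand), the beta chain common to the collagen, fibronectin and several laminin receptors, stood at 1380, 1592 and 1544 CPM in siControl and at 1574, 1646 and 1177 CPM in siDAB2IP libraries. The groups overlapped, with a log2 fold change of -0.04 (95% interval -0.37 to 0.29) that was 0.10 without siDAB2IP replicate 3.

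Because siDAB2IP replicate 3 stood apart, the members were counted again without it. Then 4 of the 10 subunits rose, ITGA5, ITGB5, ITGA2 (log2 fold change 0.37, edgeR adjusted p = 0.0197) and ITGA3 (0.35, edgeR adjusted p = 0.0386), and 1 fell, ITGB8. In that fit 7.44% of all genes tested rose and 8.59% fell. Between same-numbered libraries, 8 subunits were higher and 2 lower in siDAB2IP for replicates 1 and 2 each, and 4 were higher and 6 lower for replicate 3. The share of all genes that was higher in each such pair is not given here. In the fit with all 6 libraries, 7884 of all genes tested had a positive and 7546 a negative log2 fold change. ITGA5 and ITGB8 kept their calls without each of the 6 libraries in turn.

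**Figure D2:**
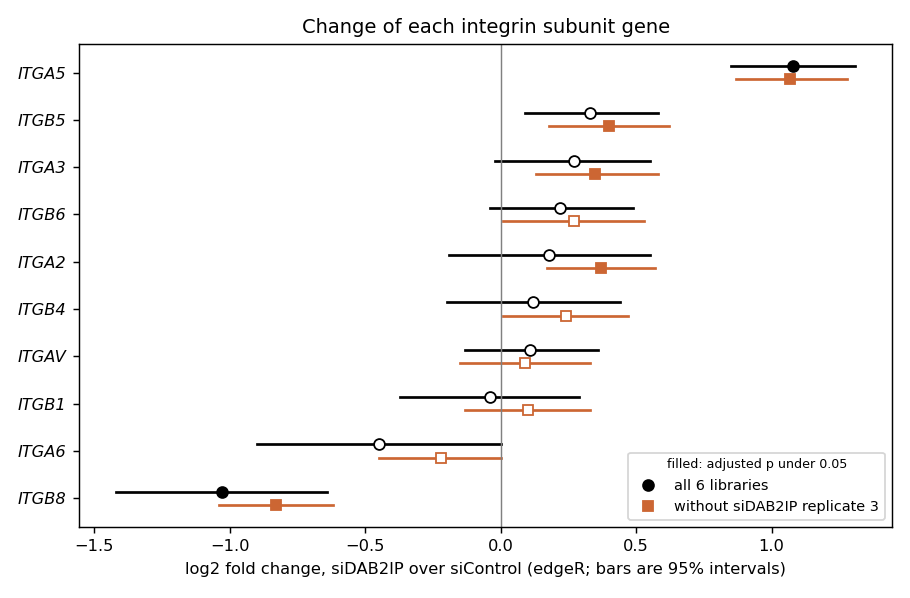
Log2 fold change of each integrin subunit gene, siDAB2IP over siControl, from edgeR with all 6 libraries (black circles) and without siDAB2IP replicate 3 (orange squares). Bars are 95% intervals and filled symbols mark an adjusted p under 0.05. ITGA5 at 1.08 and ITGB8 at -1.03 are filled in both fits, while ITGA2, ITGA3 and ITGB5 are filled only without replicate 3.

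The makeup of the subunit transcripts was examined within each library, which does not depend on scaling between libraries. ITGA5 made up 20.3, 20.0 and 19.8% of the summed FPKM of the 5 alpha subunits in the siControl libraries and 33.3, 33.7 and 41.4% in the siDAB2IP libraries. ITGA6 made up 38.4, 40.1 and 42.4% in the siControl libraries and 27.8, 27.1 and 18.9% in the siDAB2IP libraries. The alpha chain with the largest share was thus ITGA6 in every siControl library and ITGA5 in every siDAB2IP library. The mean share differed by 16.1 points for ITGA5 and by -15.7 points for ITGA6 (2-sided exact permutation test, p = 0.1 for each, the smallest that 3 libraries against 3 allow; Benjamini-Hochberg adjusted p = 0.25 over the 10 shares). These differences are not independent, because a rise of ITGA5 enlarges the sum and by itself lowers the share of ITGA6. From siControl to siDAB2IP, ITGA6 went from 153.7 to 144.4 FPKM in replicate 1, where the alpha sum went from 400.0 to 519.3. In replicate 2 ITGA6 went from 162.1 to 136.7 and the sum from 404.7 to 504.8. In replicate 3 ITGA6 went from 177.7 to 79.19, with sums of 419.4 and 419.2. ITGA6 itself was not called. The shares of ITGA3 (25.9 ± 2.54 and 26.3 ± 0.374%, SD, n = 3), ITGA2 (6.01 ± 0.324 and 5.70 ± 0.882%) and ITGAV (7.81 ± 0.744 and 7.24 ± 1.05%) overlapped between siControl and siDAB2IP.

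Among the beta subunits, ITGB4 and ITGB1 together held most of the summed FPKM in both groups. ITGB4 made up 45.9 ± 2.85% in siControl and 48.8 ± 1.11% in siDAB2IP libraries (SD, n = 3), and ITGB1 made up 42.3 ± 2.57 and 40.2 ± 1.31%. The ranges of these 2 shares overlapped between the groups. By counts in place of FPKM, the share of ITGB4 did not overlap (46.0 ± 2.78 and 50.2 ± 1.10%). The share of ITGB8 was 4.24, 4.43 and 4.22% in the siControl libraries and 2.23, 2.11 and 1.75% in the siDAB2IP libraries, and that of ITGB5 was 5.10, 5.48 and 5.67% and then 6.32, 6.49 and 7.35%. Neither overlapped between the groups (exact permutation p = 0.1 for each, adjusted 0.25 over the 10 shares), and ITGB6 made up 2.03 ± 0.358 and 2.33 ± 0.234%. The ITGAV partners ITGB5, ITGB6 and ITGB8 summed to 68.9 ± 2.71 FPKM in siControl and 66.1 ± 7.31 FPKM in siDAB2IP libraries (exact permutation p = 0.6).

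**Figure D3:**
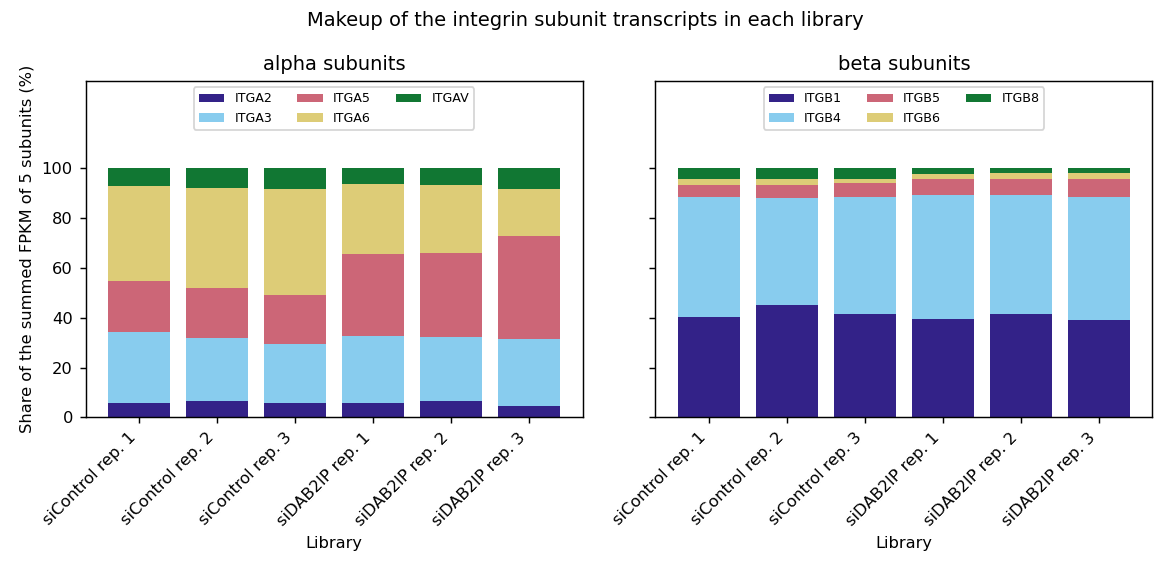
Share (%) of each subunit in the summed FPKM of the 5 alpha subunits (left) and of the 5 beta subunits (right), 1 stacked bar per library. In the left panel ITGA5 takes about a constant part of each siControl bar (19.8 to 20.3%) and 33.3 to 41.4% of each siDAB2IP bar, at the side of a narrower ITGA6 segment.

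Ratios between subunits within a library were computed for 7 pairs. The FPKM of ITGA5 was 0.527, 0.499 and 0.467 times that of ITGA6 in the siControl libraries and 1.20, 1.25 and 2.19 times that of ITGA6 in the siDAB2IP libraries. The order of these 2 alpha chains was therefore reversed in all 3 siDAB2IP libraries. The log2 ratio differed by 1.58 for ITGA5 to ITGA6, by 1.13 for ITGA5 to its partner ITGB1 and by -0.61 for ITGA6 to its partner ITGB4. Groups did not overlap for these 3 pairs and for ITGA2 to ITGB1, which differed by 0.20 (exact permutation p = 0.1 for each, adjusted 0.175 over the 7 pairs). They overlapped for ITGA3 to ITGB1, ITGAV to ITGB5 and ITGAV to ITGB6. The summed FPKM of the RGD-binding alpha chains ITGA5 and ITGAV was 109, 113 and 118 in the siControl libraries and 206, 205 and 209 in the siDAB2IP libraries, while that of the laminin-binding ITGA3 and ITGA6 overlapped (270 ± 5.52 and 247 ± 49.4, SD, n = 3). The first sum mainly restates ITGA5, whose mean was 81.6 FPKM in siControl and 172 in siDAB2IP libraries. The mean of ITGAV was 31.9 and 34.4 FPKM, and ITGAV was not called. All of these are RNA levels, and protein at the cell surface was not measured.

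Of the remaining integrin genes, ITGA10 stood at 11.9 FPKM in siControl cells, the same level as ITGB6, and the other 15 were at 2.85 FPKM or less. Of these 16 other subunit genes, 10 were tested and 0 passed the threshold in edgeR, although 4 had an unadjusted p under 0.05. When the replicate number entered as a block, 3 of these 10 fell, ITGA1, ITGA4 and ITGA10, and the same 3 fell in DESeq2. Among all genes tested, 11.4% fell with the block, and in DESeq2 9.23% fell and 7.37% rose. These 3 were named after their values were seen. ITGA10, a collagen receptor chain, stood at 75.9 ± 9.75 CPM in siControl and 46.5 ± 17.9 CPM in siDAB2IP cells (SD, n = 3; log2 fold change -0.71, edgeR adjusted p = 0.0599, with the block 0.0160). ITGA1, also a collagen receptor chain, stood at 53.4 ± 7.77 and 33.4 ± 12.3 CPM (log2 fold change -0.68, edgeR adjusted p = 0.0872, with the block 0.0165).

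Integrin adaptor and signaling genes moved in both directions. Of 41 tested (43 in the list), 5 rose (12.2%, compared with 6.55% of all genes tested) and 4 fell (9.76%, compared with 7.65%), with a median log2 fold change of 0.02. Genes that rose included PXN, which encodes the focal adhesion scaffold paxillin, the kinase SRC, the filamin-binding FBLIM1 and the talin TLN2, the last named after its values were seen. PXN was 173 ± 15.5 CPM in siControl and 246 ± 16.8 CPM in siDAB2IP cells (log2 fold change 0.50, edgeR adjusted p = 0.0139). The fall comprised PARVA and LIMS1, which encode parvin and PINCH proteins that form a complex with integrin-linked kinase, the integrin-associated CD47 and the tensin TNS2. ILK, the gene of that kinase, was low, at 1.85 ± 0.683 CPM in siControl and 2.32 ± 0.396 CPM in siDAB2IP cells (SD, n = 3). It was not called (log2 fold change 0.33, edgeR adjusted p = 0.535), and it was named after its values were seen. PARVA stood at 36.1, 35.9 and 38.1 CPM in siControl and at 17.8, 18.3 and 16.3 CPM in siDAB2IP libraries, with no overlap (log2 fold change -1.07, edgeR adjusted p = 0.000665), and LIMS1 had a log2 fold change of -0.81 (edgeR adjusted p = 0.00512), with the reservation that LIMS1 has near-identical copies with which it can share reads. The count of rises changed when a library was left out: it was 2 without replicate 1, 0 without replicate 2 and 1 without replicate 3 of siControl. It was 1 without replicate 1, 3 without replicate 2 and 6 without replicate 3 of siDAB2IP. In the last of these fits 7.44% of all genes rose. The share of all genes is not given for the others, and a fit with fewer libraries has less power for every gene. Of the falls, 2 passed without siControl replicate 2, PARVA and LIMS1.

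Ligands of these receptors included several changed genes. Of 21 tested (26 in the list), 4 rose (19.05%, compared with 6.55% of all genes tested) and 2 fell (9.52%, compared with 7.65%), with a median log2 fold change of 0.19. LAMB3, which encodes the beta chain of the epithelial laminin bound by ITGA3 and ITGA6, rose from 856 ± 24.0 to 1733 ± 170 CPM (SD, n = 3; log2 fold change 1.02, edgeR adjusted p = 0.00128). COL1A1, a collagen chain that is also on the list of fibroblast markers, rose from 15.3 ± 1.24 to 26.3 ± 5.44 CPM (0.78, edgeR adjusted p = 0.0129). TGFB2, a TGF-β whose latent form lacks the RGD sequence that ITGAV receptors bind, rose from 8.17 ± 2.18 to 23.6 ± 8.57 CPM (1.53, edgeR adjusted p = 0.00631). LAMB1, a laminin chain of other basement membranes, fell from 1585 ± 61.2 to 1154 ± 151 CPM (-0.46, edgeR adjusted p = 0.0413), and the basement membrane collagen COL4A1 fell from 151 ± 44.5 to 88.3 ± 22.8 CPM (-0.78, edgeR adjusted p = 0.0429). With the replicate block, 8 ligands rose and 4 fell, where 9.59% of all genes rose and 11.4% fell. Leaving out a siControl library gave 2 rises and 1 fall for replicate 1, 2 rises and 0 falls for replicate 2, and 7 rises and 0 falls for replicate 3. There was 1 fall without siDAB2IP replicate 1 and 0 without siDAB2IP replicate 2. The calls of LAMB1 and COL4A1, close to the threshold with all 6 libraries, were thus lost in several of these smaller fits. For both genes every siDAB2IP library lay below every siControl library, but the groups did not overlap for 35.9% of all genes tested. Both passed with the replicate block (edgeR adjusted p = 0.0241 and 0.000852). The pairing behind this block was inferred from these same data, so that fit is not independent support for the 2 calls. The share of all genes called without single libraries is not given here except for siDAB2IP replicate 3. Of 17 trafficking genes, all tested, 1 rose and 1 fell (5.88% each, compared with 6.55% and 7.65% of all genes tested). EHD1, which acts in endosomal recycling, rose from 46.7 ± 2.96 to 71.7 ± 12.2 CPM (log2 fold change 0.62, edgeR adjusted p = 0.0131). RAB11A, a small GTPase of recycling endosomes, fell from 57.3 ± 4.17 to 27.8 ± 4.07 CPM (log2 fold change -1.04, edgeR adjusted p = 0.00147). EHD1 did not pass without siControl replicate 1 or without siControl replicate 2. With the replicate block and without siDAB2IP replicate 3, 2 trafficking genes fell, where 11.4% and 8.59% of all genes fell, respectively.

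**Figure D4:**
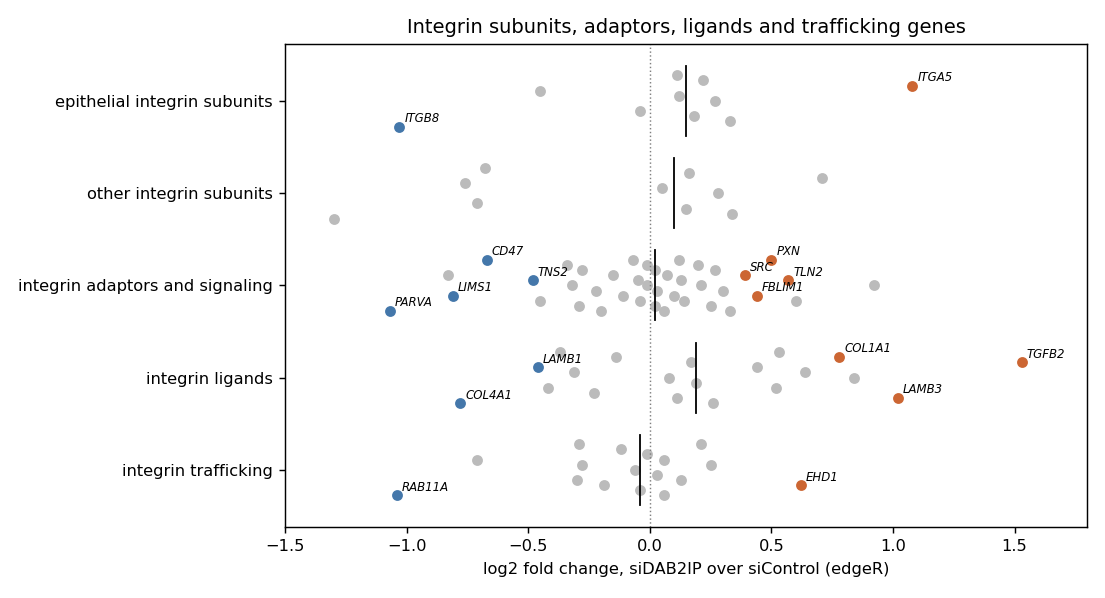
Log2 fold change, siDAB2IP over siControl (edgeR, 6 libraries), of tested genes of 5 lists. Orange points rose and blue points fell at an adjusted p under 0.05, grey points did not pass, and vertical lines are medians over all tested genes of a list. ITGA5 and ITGB8 lie at opposite ends of the 10 epithelial integrin subunits, whose median is 0.15.

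Genes whose level followed that of ITGA5 most closely were sought among 9436 tested genes with a mean of at least 10 CPM. The 5 highest Pearson correlations of log2 CPM over the 6 libraries were 0.998 to 0.999, for TMBIM1, PHKA1, ZNHIT1, MANBAL and AFMID. All 5 rose, with log2 fold changes of 0.42 to 0.70, and their likeness to ITGA5 rests mainly on the step between the groups. After the group means were subtracted, the highest were CDKN1C (0.996), DIDO1 (0.995) and DNAJC17 (0.989), over differences within groups that for ITGA5 were at most 0.03 on the log2 scale.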

How the data were processed

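The data comprised 6 RNA-Seq libraries of MCF10A cells, 3 siControl and 3 siDAB2IP. According to the study's methods, Novogene prepared and sequenced the libraries (NovaSeq, paired-end) and mapped the reads. The submitters' processing notes name STAR 2.6.1d, featureCounts 1.5.0-p3, DESeq2 1.20.0, edgeR 3.24.3 and the build hg38, without their roles or order. The strand setting is not given in the sources used here, so reads of a gene and an overlapping antisense gene cannot be told apart. Exonic overlap with any single opposite-strand gene was at most 2.66% of a subunit's exon bases, and those genes held at most 53 counts in any library where they overlapped in exons. ITGB6 shares 20.6% of its exon bases with a same-strand gene of at most 1 count. The authors deposited counts per gene, which are whole numbers without normalization and sum to 16353783 to 21916062 per library, and FPKM values, in which the authors divided counts by gene length and a scaled library total. All 58735 genes match GENCODE release 29 (GRCh38) in start, end and strand, and coordinates are those of the tables. Counts pool all isoforms of a gene.

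Differential expression was tested on the counts by edgeR 4.0.16 under R 4.3.3 (filterByExpr, TMM, glmQLFit, glmQLFTest, Benjamini-Hochberg adjustment over 15430 genes, adjusted p under 0.05; common biological coefficient of variation 14.8%). SEs were derived from the F statistic. Shares, ratios and sums used the deposited FPKM and 2-sided exact permutation tests. The scripts were tested on simulated data. The alternatives were DESeq2 1.42.0, other scalings and filters, limma 3.58.1 on log2(FPKM + 1) and log2(FPKM + 0.1), a replicate block and leaving out each library. Deviations from group means of same-numbered libraries correlated at 0.26, 0.15 and 0.25 across genes, and those of differently numbered libraries of the 2 groups at -0.28 to 0.02, so the numbers of the labels were taken to pair the libraries. This pairing is inferred from the data.

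The members and all 9 gene lists, as well as the promoter motifs, were chosen with earlier results of these data known. Named genes are all members, DAB2IP, at most 4 called genes in each direction of each integrin-related list by smallest p, and the 5 and 3 genes most like ITGA5. Some genes of the lists were counted but are not reported here by name or plotted. The limit of 3 counts covers counting error only.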

Additional observations from a re-analysis of the deposited data

How the results depend on the processing

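Of the 10 subunits, 1 rose and 1 fell in the fit reported. 2 rose with scaling by library size only (ITGA5 and ITGB5), 2 fell with no filter on low counts (ITGB8 and ITGA6), and leaving out single libraries gave 1 to 4 that rose, 4 of them without siDAB2IP replicate 3. ITGA5 (log2 fold change 1.05 to 1.12) and ITGB8 (-1.17 to -0.83) kept direction and call in all 15 alternatives, as did DAB2IP (-1.99 to -1.55). ITGB1 changed sign only without siDAB2IP replicate 3 (0.10), and its log2 fold change was -0.13 to -0.01 without each of the other libraries. For adaptor and signaling genes, the 5 rises were 0 at an adjusted p under 0.01 and 3 with limma on log2(FPKM + 0.1) or log2(FPKM + 1), with 0 to 6 when single libraries were left out. They were 6 with DESeq2, with library size only and with no filter, and 7 with the replicate block. The 4 falls of these genes were 2 at an adjusted p under 0.01, 5 with no filter, 6 with the replicate block and 2 to 4 without single libraries. For ligands, the 4 rises were 2 at an adjusted p under 0.01, 10 with no filter, 8 with the replicate block and 2 to 7 without single libraries. The 2 falls of ligands were 4 with DESeq2, with no filter and with the replicate block, 1 with library size only and with either limma fit, 0 at an adjusted p under 0.01, and 0 to 3 without single libraries. Of all genes tested, 9.59% rose and 11.4% fell with the replicate block, and 7.37% rose and 9.23% fell with DESeq2. The shares for library size only, no filter, the limma fits and an adjusted p under 0.01 are not given here. With no filter the edgeR adjusted p of DAB2IP was 3.30e-42, compared with 9.71e-05 in the fit reported, so counts of that fit are not directly comparable. The replicate block changed no call among the 10 subunits (ITGA5 adjusted p = 0.000344, ITGB8 0.00261 with edgeR). The fall in the share of ITGB8 among beta subunits was -4.97 points by counts in place of FPKM, since counts are not divided by length and the ITGB8 exons are the longest of the 10. Otherwise the cause was not tested. With 3 libraries per group no permutation p can fall below 0.1.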
